A study of Mus musculus with 28 samples.

Results

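The regions described here carried 3 histone modifications at once in mouse neural progenitors and lay at the end of a protein-coding gene. For each of H3K9ac (acetylated lysine 9 of histone H3), H3K9cr (crotonylated lysine 9) and H3K18la (lactylated lysine 18), the bases covered by a peak in both day 4 libraries were kept. The 3 sets were merged wherever they overlapped or touched. A merged region was kept if it overlapped all 3 marks and lay within 1 kb of either end of a protein-coding gene record of RefSeq GRCm38.p6. Of 47842 merged regions, 18788 overlapped all 3 marks, and 10175 of those lay near a gene end, which is 54.2% of the triple-marked regions. The other 8613 triple-marked regions lay over 1 kb away.

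The cells were P19, an established mouse embryonal carcinoma line that is pluripotent in culture and turns neural in retinoic acid. All groups after day 0 had received 1 µM retinoic acid. Day 0 cells were untreated. Day 4 cells, called neural stem and progenitor cells by the labels, had 4 days of retinoic acid, and day 8 cells were replated after that in neuronal medium with B27. In the day 2 arm, 1 µL of 10 mM MS-275, an inhibitor of class I histone deacetylases, or 1 µL of DMSO, its solvent, was added on day 1. The peak lists came from native ChIP-seq, each mark having 2 libraries at day 4 and a single one with MS-275 and with DMSO at day 2, and from 2 ATAC-seq libraries at day 4. RNA-seq had 2 libraries in each of 5 groups, with 18115738 to 19586107 estimated counts per library. Read depth behind the peak lists is unknown. All cells are 1 line, and no source used here says how separate the replicate cultures were, so p-values measure the spread between these libraries, which may be technical.

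Acetyl, crotonyl and lactyl groups are attached to the same kind of lysine side chain, and all 3 remove its positive charge. Acetylated lysine 9 is a textbook mark of active promoters, where it sits on the nucleosomes beside the open stretch at the transcription start. Crotonylation and lactylation draw on crotonyl-CoA and on lactate, and histone deacetylases of class I can remove acyl groups other than acetyl. Peaks of different marks come from separate libraries of a cell population, so a region with all 3 marks need not carry them in the same cell.

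The label of the cells was checked against marker genes. The 11 neural stem and progenitor markers, such as Sox1, Pax3 and Hes5, summed to 2481 and 2344 CPM (counts scaled to the size of the library) in the day 4 libraries, against 609 and 621 CPM at day 0. The 5 pluripotency markers summed to 3.15 and 4.55 CPM at day 4, against 2242 and 2216 CPM at day 0. Day 4 cells also expressed the 4 matched neuron markers at 1761 and 1695 CPM and the 6 fibroblast and mesenchyme markers at 747 and 849 CPM, against 332.9 and 344 CPM and 46.0 and 37.9 CPM at day 0. None of the 6 mesenchymal genes was at 0, so RNA of neuronal and mesenchymal genes was part of what was measured, and the part of such cells in the results was not tested. In bulk samples, fewer cells of a type and less RNA per cell cannot be told apart. A gene end lay at a triple-marked region for 9 of the 11 neural markers, 4 of the 4 neuron markers, 1 of the 6 mesenchymal markers and none of the 5 pluripotency markers.

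Most of the regions lay at a gene start. A gene start of known strand lay in or beside 7881 of the 10175 regions, or 77.5%. A further 1888 regions, or 18.6%, touched the end of a gene whose strand the reference table used here did not give. Only 242 regions, or 2.38%, held a 3′ end and no other gene end. Counted by gene, 8396 of 17492 starts (48.0%) were at such a region, against 1311 of 17492 3′ ends (7.49%). In 81.1% of the regions the gene end lay inside the region rather than beside it.

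The share of genes with an end at such a region differed by gene list. An end of 81 of 84 ribosomal protein genes lay at a triple-marked region, as did an end of 24 of 28 DNA replication genes and 23 of 26 genes of glycolysis and lactate handling. The same held for 29 of 34 neural stem and progenitor genes, 27 of 32 neuron genes and 30 of 39 Hox genes, the clustered homeobox genes that set position along the body axis. It held for only 8 of 29 pluripotency genes, 2 of 23 cardiac and muscle genes, 2 of 23 germline genes and 0 of 1106 olfactory receptor genes. Over all protein-coding genes the share was 49.6%, and it held for 10224 of the 14397 with enough RNA counts to be tested. By chromosome the share over all protein-coding genes lay between 36.8% on chromosome 14 and 61.1% on chromosome 11, apart from chromosome X with 243 of 966 genes (25.2%) and chromosome Y with 2 of 256.

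The promoter sequences at these regions were rich in CpG, the dinucleotide that clusters in CpG islands. In windows of 250 bases before to 50 bases after a start, taken from RefSeq for GRCm38.p6, the median GC content was 62.0% for the 8396 starts at a triple-marked region and 49.7% for the 9096 starts elsewhere. The median ratio of observed to expected CpG was 0.795 for the starts at these regions and 0.248 for starts elsewhere. With a CpG-rich promoter taken as one with over 50% GC and a ratio over 0.6, 74.8% of the starts at these regions and 18.5% of the starts elsewhere were CpG-rich. The sequences below show how far CpG content ranged among genes the results turn on: the first 3 belong to the top-ranked regions whose upstream bases no other gene record covers, the next pair to genes among the 5 largest RNA rises at day 4 over day 0 by the same condition, and the last pair to genes among the 5 largest falls. Each runs 5′ to 3′ up to the last base before the gene record, with every CpG in capitals.
Etv6, chr6:134035450-134035699, plus strand: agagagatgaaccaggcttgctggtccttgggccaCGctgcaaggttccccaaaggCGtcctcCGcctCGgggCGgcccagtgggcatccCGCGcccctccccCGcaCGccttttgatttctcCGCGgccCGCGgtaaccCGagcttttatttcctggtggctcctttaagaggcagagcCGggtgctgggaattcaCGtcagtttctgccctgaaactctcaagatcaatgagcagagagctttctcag
H4f16, chr6:136804432-136804681, minus strand: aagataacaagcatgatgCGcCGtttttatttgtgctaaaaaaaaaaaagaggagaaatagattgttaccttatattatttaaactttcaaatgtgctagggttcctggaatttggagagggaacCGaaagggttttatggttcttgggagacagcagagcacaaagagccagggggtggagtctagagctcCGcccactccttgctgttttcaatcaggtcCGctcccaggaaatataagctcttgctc
Eif4a1, chr11:69672424-69672673, minus strand: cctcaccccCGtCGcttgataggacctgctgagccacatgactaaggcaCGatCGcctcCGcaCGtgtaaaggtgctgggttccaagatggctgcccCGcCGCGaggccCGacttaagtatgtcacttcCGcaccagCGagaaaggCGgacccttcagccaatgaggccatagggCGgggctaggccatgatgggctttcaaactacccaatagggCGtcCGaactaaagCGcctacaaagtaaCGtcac
Neurog1, chr13:56252181-56252430, minus strand: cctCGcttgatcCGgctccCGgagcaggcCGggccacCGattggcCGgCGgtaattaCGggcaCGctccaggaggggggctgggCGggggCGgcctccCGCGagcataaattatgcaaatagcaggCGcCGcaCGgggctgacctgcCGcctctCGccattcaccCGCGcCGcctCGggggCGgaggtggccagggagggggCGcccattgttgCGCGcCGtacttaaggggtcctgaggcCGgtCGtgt
Nhlh2, chr3:102009895-102010110, plus strand: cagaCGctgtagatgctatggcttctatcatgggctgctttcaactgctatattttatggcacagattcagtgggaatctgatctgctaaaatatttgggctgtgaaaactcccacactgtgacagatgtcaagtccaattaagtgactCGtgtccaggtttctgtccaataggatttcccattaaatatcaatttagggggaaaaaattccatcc
Zscan10, chr17:23600576-23600825, plus strand: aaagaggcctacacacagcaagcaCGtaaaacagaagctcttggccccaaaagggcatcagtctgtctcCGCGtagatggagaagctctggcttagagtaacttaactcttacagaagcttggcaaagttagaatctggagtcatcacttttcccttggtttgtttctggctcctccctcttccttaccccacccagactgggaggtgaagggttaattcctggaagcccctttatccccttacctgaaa
Tmem154, chr3:84665942-84666191, plus strand: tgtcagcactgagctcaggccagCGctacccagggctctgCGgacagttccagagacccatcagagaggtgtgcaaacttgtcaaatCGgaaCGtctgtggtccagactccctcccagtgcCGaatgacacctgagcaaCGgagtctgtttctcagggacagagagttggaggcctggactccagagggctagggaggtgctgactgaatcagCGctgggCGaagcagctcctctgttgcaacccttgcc
Neurog1, which encodes a proneural transcription factor, had 29 CpGs in 250 bases, and Eif4a1, which encodes an RNA helicase of translation initiation, had 18. Etv6, which encodes an ETS-family repressor, had 16. Nhlh2, another neuronal helix-loop-helix factor, had 2 in 216 bases, and Zscan10, a zinc finger gene of pluripotent cells, had 3. The Zscan10 window lies between its triple-marked region and the gene. H4f16, a histone H4 gene, had 5 CpGs, and Tmem154, a gene for a membrane protein, had 8.

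Short promoter motifs differed in how common they were. Matches were searched on both strands of the 300 base windows, and a match is a description of letters, not of a bound site. The GC box GGGCGG, a motif of Sp and Klf factors, was found in 68.8% of the starts at these regions, in 25.6% of starts elsewhere and in 46.3% of all 17492 promoters. The ETS motif CCGGAAG was found in 19% of the starts at these regions, in 5.39% elsewhere and in 11.9% of all promoters. The cyclic AMP response element TGACGTCA was found in 3.99%, 0.792% and 2.33% of the same 3 sets. The TATA element TATAAA ran the other way, with 6.36% of the starts at these regions, 19.8% of starts elsewhere and 13.3% of all promoters. Several of these motifs hold CpG, so their shares move with CpG content.

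The median width of the regions was 2145 bases, with an interquartile range of 1612 to 2820 bases, and 47 regions were wider than 10 kb. H3K9ac covered the whole of the median region, H3K9cr covered 90.4%, and H3K18la covered 49.7%. In the triple-marked regions over 1 kb away, with a median width of 1756 bases, the order differed: H3K9ac covered 88.6%, H3K18la 80.8% and H3K9cr 57.7% of the median region. In 28 regions near gene ends no base was common to all 3 marks.

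Peak strength near gene ends and away from them was further apart for H3K9ac and H3K9cr than for H3K18la. The values are the fold enrichments over local background that the authors' caller gave, and they also entered the choice of regions, so they are a description only. The strongest H3K9ac peak in a region had a median fold of 58.2 and 57.9 in the day 4 libraries, against 14.2 and 12.9 in triple-marked regions over 1 kb away. For H3K9cr the medians were 52.9 and 52.4 near gene ends, against 9.44 and 9.37 away from them. For H3K18la they were 6.33 and 6.29 near gene ends, against 6.18 and 5.89 away from them. Of the 1000 strongest peaks of each day 4 library, 89.4% and 89.3% of the H3K9ac peaks, 90.9% and 90.2% of the H3K9cr peaks, and 56.9% and 58.7% of the H3K18la peaks fell in these regions. At the 1 kb limit, the 75 regions within the last 100 bases inside it had median H3K9ac folds of 37.1 and 33.5, and the 40 regions within the first 100 bases beyond it had 32.7 and 30.3.

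Around the start, lactylation was placed differently from the other 2 marks. Summits were placed in the 6048 regions with 1 protein-coding gene start and no other protein-coding gene end. Starts of non-coding genes and alternative starts were not excluded from them. The summit of the strongest H3K9ac peak lay at a median of 351 and 358 bases into the gene, and that of H3K9cr at 344 and 371 bases. The H3K18la summit lay at a median of 273 and 249 bases into the gene. Of the H3K18la summits, 31.5% and 31.3% were upstream of the start, against 17.3% and 16.3% for H3K9ac and 15.6% and 15.8% for H3K9cr. Both H3K18la libraries were above all 4 libraries of the other marks in this share, which is given as a description, since these peaks chose the regions. ATAC summits, which mark open chromatin, lay at a median of 14 bases into the gene in both libraries.

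**Figure D1:**
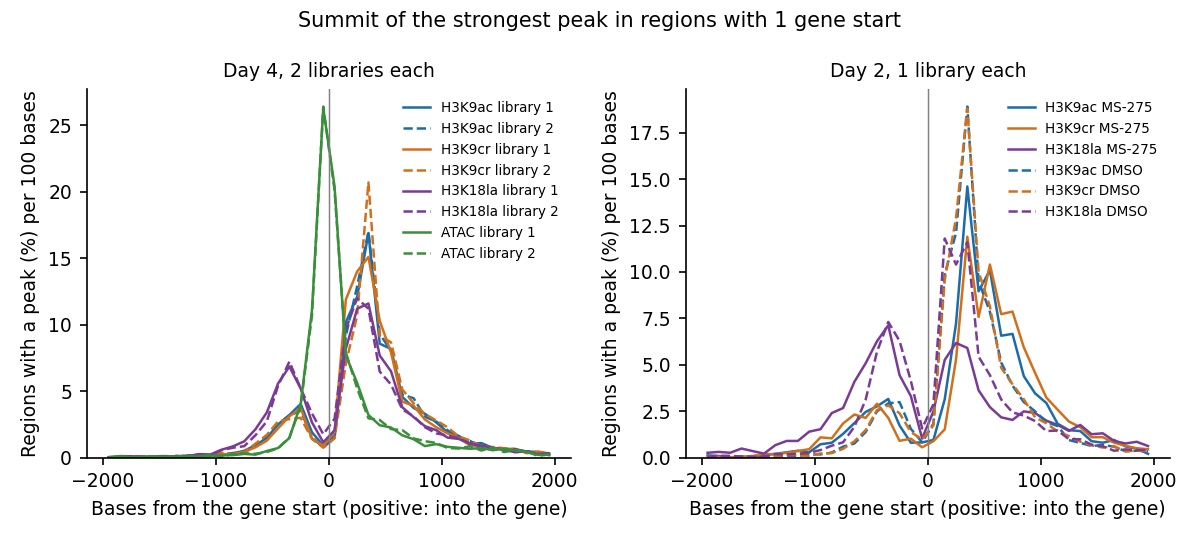
Position of the strongest peak's summit relative to the gene start, as the percentage of regions with a peak of that library per 100 bases. The 6048 triple-marked regions have 1 protein-coding gene start and no other protein-coding gene end, and non-coding starts were not excluded. On the left, day 4 libraries (solid and dashed lines, library 1 and library 2): ATAC summits lie at the start, H3K9ac and H3K9cr mostly within the gene, and H3K18la on both sides. On the right, the day 2 libraries with MS-275 (solid) and DMSO (dashed).

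Open chromatin was measured independently of the rule. An ATAC peak lay in 88.2% of the regions in library 1 and 85.3% in library 2, and 8369 of 10175 (82.3%, exact binomial 95% interval 81.5 to 83.0) were open in both. Among triple-marked regions over 1 kb away, 46.3% (45.3 to 47.4) were open in both libraries. Intervals cover counting error over regions only. Among the 242 regions with only a 3′ end the share was 38.8% (32.7 to 45.3), and among the 544 regions with a pair of divergent starts, a median of 109 bases apart, it was 93.2%. Other pairs of starts were nearly as open, with 91.5% of 342 regions with overlapping starts and 90.5% of 42 with same-strand starts. With 1 start of known strand it was 84.1% of 6936 regions. No ATAC peak in either library was found in 889 regions (8.74%).

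The top-ranked regions belonged to genes of several kinds. Regions were ranked by the lowest of their 6 within-list percentiles of fold enrichment, so that a high rank needs all 3 marks in both libraries. The first was the HoxB cluster at chr11:96268565-96356526, a single region of 87962 bases with ends of Hoxb2 to Hoxb9, and also the widest. Its strongest peaks had folds of 313 and 252 for H3K9ac, 251 and 232 for H3K9cr and 23.2 and 22.6 for H3K18la at day 4. Etv6 followed at chr6:134034499-134039245, with folds of 178 and 167 for H3K9ac, 173 and 178 for H3K9cr and 28.5 and 25.4 for H3K18la. The H4f16 region at chr6:136802843-136805477 came next among regions with a gene start of known strand, with H3K18la folds of 33.4 and 28.1. The other top-ranked regions with a start belonged to Eif4a1, Arrdc3 (an arrestin-domain gene), Setd5 (a chromatin regulator), Meis1 (a homeobox cofactor of Hox proteins) and Klf7 (a Krüppel-like factor), each with H3K9ac folds of 143 or more in both libraries.

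Other wide regions also lay in Hox clusters. Among the widest were chr15:102995504-103043584 with 48081 bases over Hoxc4, Hoxc5 and Hoxc6, and chr6:52191552-52227146 with 35595 bases over Hoxa3 to Hoxa9. The last of them had an ATAC peak of fold 4.22 in library 1 and none in library 2. In the HoxB region and the region over Hoxc4, Hoxc5 and Hoxc6, ATAC folds lay between 5.52 and 5.7 in both libraries.

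Among regions with only a 3′ end, the top-ranked was at chr4:117119426-117121504, at the 3′ end of Btbd19, with H3K9ac folds of 129.6 and 124. Next came those at Fbxw2, an F-box gene, with 124 and 125, and between Copz1 and Gpr84 at chr15:103295306-103307742, with 111 and 102. Each of these had an ATAC peak in both libraries, of folds 11.0 and 8.11 at Btbd19, 11.0 and 7.26 at Fbxw2 and 4.93 and 4.82 at Copz1. Only 38.8% of the 242 regions were open in both, so these examples are not typical of them. In the 242 regions H3K18la covered a median of 77.9% of the bases and H3K9cr 64.3%. Their summits had no set position relative to the gene end: the median H3K9ac summit lay 22 bases before it in both libraries. In library 1 their interquartile range ran from -903 to 973 bases, with positions before the gene end negative.

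The day 2 lists asked whether the regions were already marked when retinoic acid had acted for 2 days and which of them had a peak with MS-275. With 1 library per mark and treatment there is no replicate check and no test between treatments. With DMSO, 9171 of the 10175 regions (90.1%, 89.5 to 90.7) already had a peak of all 3 marks, and 140 (1.38%) had none, against 56.9% and 21.6% of the triple-marked regions over 1 kb away. With MS-275, H3K9ac was found in 99.4% of the regions, against 97.9% with DMSO, and H3K9cr in 99.1%, against 97.5% with DMSO. H3K18la was found in 3888 regions with MS-275 (38.2%, 37.3 to 39.2), against 9268 with DMSO (91.1%, 90.5 to 91.6). All 3 marks were found in 3887 regions (38.2%) with MS-275.

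**Figure D2:**
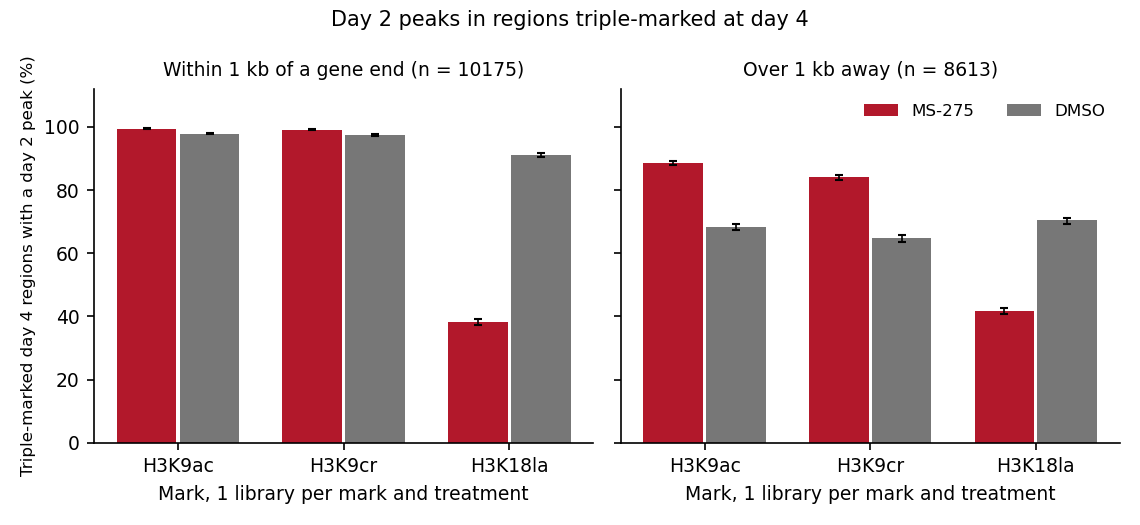
Percentage of triple-marked day 4 regions with a day 2 peak of each mark, with MS-275 (red) and DMSO (grey), near gene ends on the left and over 1 kb away on the right. Error bars are exact binomial 95% intervals over regions; each bar is 1 library. Near gene ends, H3K18la is found in 38.2% of regions with MS-275 and 91.1% with DMSO, while both other marks are above 97% in either treatment.

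For H3K18la, the lengths of the lists differed less than these shares. The MS-275 H3K18la list held 31577 peaks and the DMSO list 36382, and with the DMSO list shortened to the same number of peaks by fold enrichment it reached 88.4% of the regions. Shortening removed only the weakest DMSO peaks. The DMSO peaks in these regions had a median fold of 6.49 and the others 4.6, so the share had little room to fall. The part of list length or peak strength was thus not tested. For the other marks the MS-275 lists were longer, with 84418 H3K9ac peaks against 26555 with DMSO, and 70748 H3K9cr peaks against 24874 with DMSO. The place of the strongest peaks moved too: 26.7% of the 1000 strongest H3K18la peaks with MS-275 fell in these regions, against 59.6% with DMSO. In bases, H3K18la covered 11.3% of the regions with MS-275, against 44.0% with DMSO.

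Of the regions with an H3K18la peak in DMSO, 3747 of 9268 (40.4%, 39.4 to 41.4) also had one in MS-275. The share was 52.3% (51.0 to 53.5) in triple-marked regions over 1 kb away and 54.9% (47.2 to 62.4) at regions with only a 3′ end. The share of regions with a peak was higher where lactylation was stronger at day 4. From the lowest to the highest quintile of day 4 H3K18la strength, an MS-275 peak was found in 21.8%, 25.7%, 33.1%, 45.0% and 65.5% of the regions, and a DMSO peak in 76.6%, 86.1%, 95.6%, 98.1% and 99.1%. Region width rose along the same quintiles, with medians of 1628 bases in the lowest and 2887 bases in the highest, and split by width alone the MS-275 shares were 24.1%, 29.4%, 33.5%, 41.1% and 62.9%. The parts of strength and width in this order were not told apart. At the 544 divergent pairs the MS-275 share was 31.1% and the DMSO share 96.5%.

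**Figure D3:**
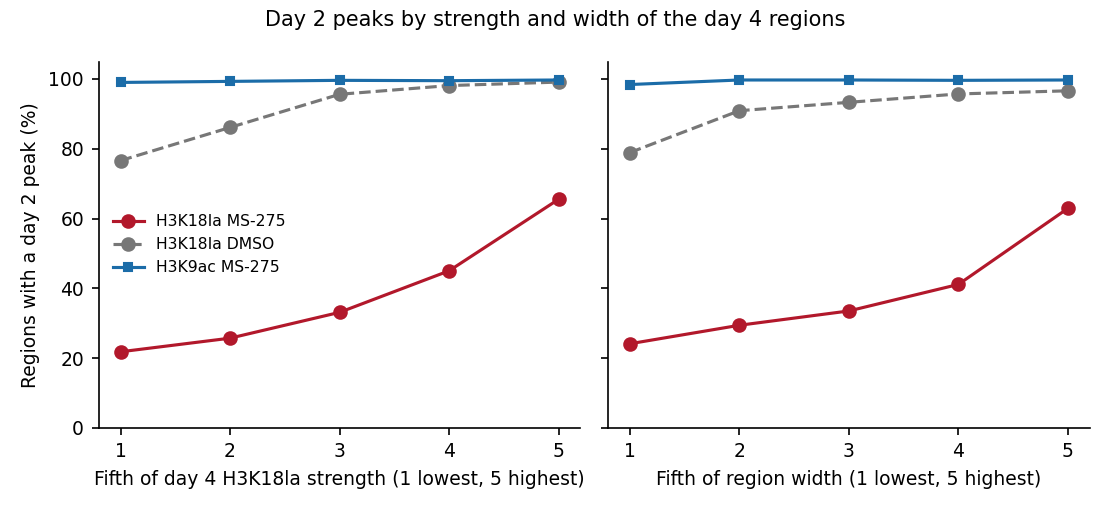
Percentage of the 10175 regions with a day 2 peak, by quintile of day 4 H3K18la strength (mean within-list percentile of the 2 libraries, left) and by quintile of width (right), 2035 regions each. The H3K18la share with MS-275 (red) climbs to 65.5% and 62.9% in the highest quintiles and stays under that with DMSO (grey) in every quintile, while H3K9ac with MS-275 (blue) is at 98.4% or more throughout.

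Summits also lay at other distances from the start with MS-275. The same 6048 regions with 1 protein-coding start and no other protein-coding end were used. The median summit lay 453 bases into the gene for H3K9ac with MS-275, against 357 with DMSO, and 535 bases for H3K9cr, against 358 with DMSO. For H3K18la, 45.4% of 2201 summits were upstream of the start with MS-275, against 33.5% of 5501 with DMSO. These H3K18la shares rest on different sets of regions, so a shift within the same regions was not tested. The strongest peaks were also lower in fold with MS-275, with medians of 14.8 for H3K9ac and 14.7 for H3K9cr, against 42.8 and 45.7 with DMSO, but a fold is relative to each list's own background. For H3K18la, over the regions with a peak, the medians were 4.39 with MS-275 and 7.31 with DMSO. The median over all peaks of the H3K18la list was 4.07 with MS-275 and 5.14 with DMSO. The part of weak peaks near the calling limit in the H3K18la shares was not tested. The region of Itgb8, an integrin subunit gene named for its large RNA fall with MS-275, lay at chr12:119235578-119240442. Its folds differed more than these medians: H3K9ac had 9.96 with MS-275 and 77.9 with DMSO, and H3K9cr 9.82 and 96.1. H3K18la had no peak there with MS-275 and a fold of 19.2 with DMSO.

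RNA was measured apart from the peaks that chose the regions. Of the 8396 genes with a start at a triple-marked region, 8108 were matched to an RNA identifier and 7973 passed the filter on low counts. A gene was called at an edgeR quasi-likelihood adjusted p under 0.05 over all 17789 genes tested. Between day 4 and day 0, 3179 of them rose and 3115 fell, or 78.9% in all, where 72.3% of all genes tested were called, 36.2% higher and 36.1% lower. The median log2 fold change was 0.01, as it was over all genes tested. All genes tested include some that are not protein-coding. Of the 14397 matched protein-coding genes tested, 76.6% were called, 36.8% higher and 39.8% lower. Genes with a triple-marked start at day 4 thus moved in both directions.

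Large rises were seen in neuronal and Hox genes with no counts at day 0; those named first were ranked by fitted change among genes with a start of known strand at such a region. Nhlh2 had 261 and 228 CPM at day 4 and no counts in either day 0 library, which makes it at least 3005-fold higher taking 3 counts in both day 0 libraries together as the floor. Hoxa5 had 208 and 221 CPM at day 4 and no counts at day 0, at least 2636-fold higher. Hoxb4 had 200 and 201 CPM at day 4 and no counts at day 0, at least 2466-fold higher. The adjusted p of these 3 genes was 2.95e-17, 3.5e-18 and 6.6e-17 (edgeR). Hoxa3 and Neurog1 followed, at least 1546-fold and at least 1296-fold higher by the same floor. Hoxb3, which has no strand in the gene records and was picked after its values were seen, had 688 and 709 CPM at day 4 and no counts at day 0, at least 8581-fold higher.

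The largest falls included Zscan10 and Lin28a, genes of pluripotent cells whose starts lay at a region with all 3 marks at day 4. Zscan10 had 0.21 and 0.222 CPM at day 4, against 144 and 134.5 CPM at day 0, a log2 fold change of -9.29 ± 0.157 (SE, adjusted p = 1.59e-17, edgeR). Its triple-marked region at chr17:23598397-23600097 lay upstream of the gene, with day 4 H3K9ac folds of 52.6 and 33.1 and an ATAC peak in both libraries. Lin28a, an RNA-binding protein that blocks let-7 maturation, had 3.62 and 3.22 CPM at day 4, against 588 and 608 CPM at day 0, a log2 fold change of -7.44 ± 0.121 (adjusted p = 1.22e-17, edgeR). Its region at chr4:134016980-134019043 had H3K9ac folds of 9.34 and 13.2 at day 4 and no ATAC peak, and a fold of 40.3 in the DMSO list. Rbpms2, another RNA-binding protein gene, and Fabp3, a fatty acid binding protein gene, fell by 5.8 and 5.48 on the log2 scale. Tmem154 had 0 and 0.278 CPM at day 4, against 18.2 and 18.1 CPM at day 0, and no fold is given because it depended on single libraries.

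Genes at the top-ranked regions differed in their RNA change. Etv6 had 65.0 and 73.6 CPM at day 4, against 59.3 and 55.4 CPM at day 0, and its call was lost in 2 of the fits with 1 library left out, so no fold is given. Setd5 had 416 and 394.5 CPM at day 4, against 617 and 592 CPM at day 0, and Klf7 had 49.7 and 51.2 CPM at day 4, against 82.1 and 79.2 CPM at day 0. Both fell, by 0.58 and 0.68 on the log2 scale (adjusted p = 1.18e-07 and 2.41e-07, edgeR). Meis1 had 318 and 332 CPM at day 4, against 1.05 and 0.897 CPM at day 0, a 331-fold rise. Setd5 and Klf7 were thus expressed in both groups, while Meis1 was nearly off at day 0.

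**Figure D4:**
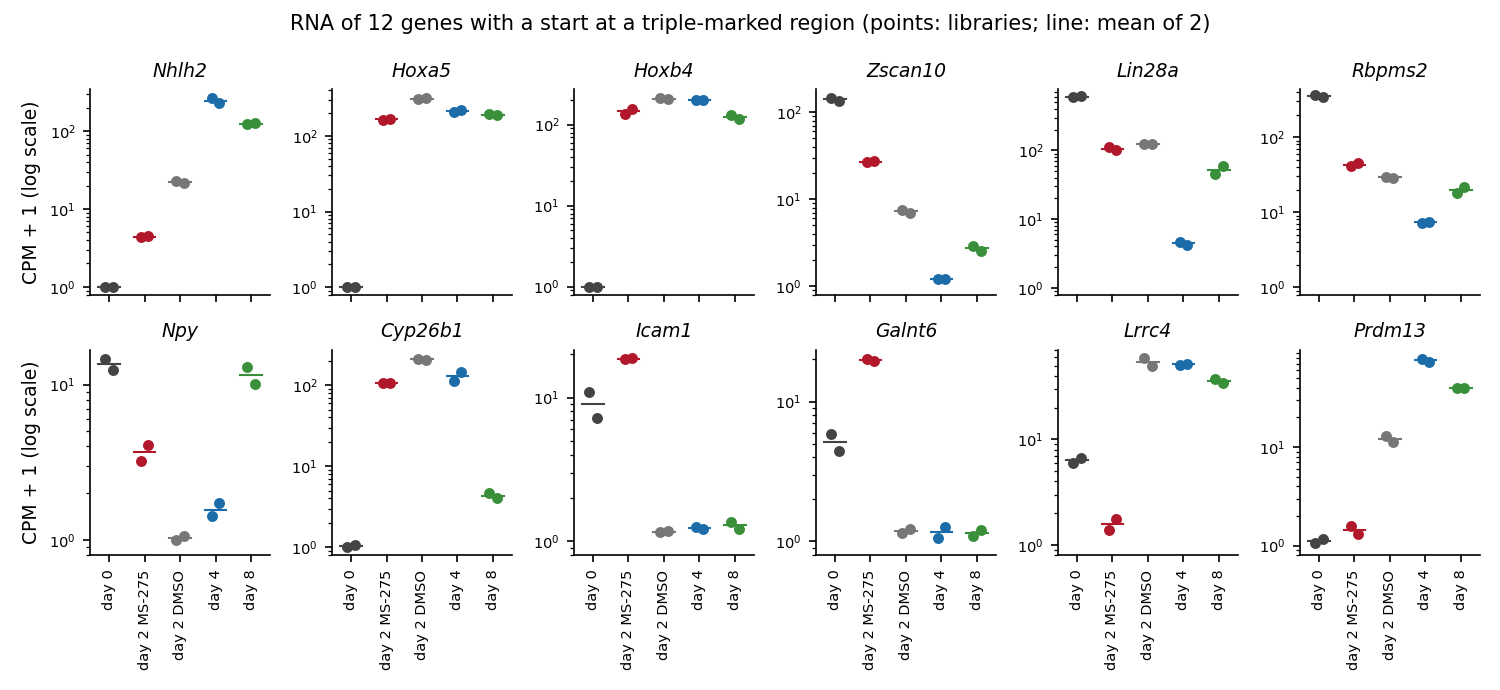
RNA level of 12 genes with a start at a triple-marked region, as CPM plus 1 on a log scale, in every library of day 0, day 2 with MS-275, day 2 with DMSO, day 4 and day 8 (points, 2 libraries each; lines, their means). Nhlh2, Hoxa5 and Hoxb4 have no counts at day 0; Zscan10, Lin28a and Rbpms2 are highest at day 0; Lrrc4 and Prdm13 are lower with MS-275 than with DMSO.

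By list, the genes with an end at a triple-marked region moved as follows between day 4 and day 0. Of all genes tested, 36.2% rose and 36.1% fell. The whole lists, with or without such an end, moved the same way. In the whole neural list 31 of 34 tested genes rose and 3 fell, and in the Hox list 28 of 32 rose and 3 fell. In the pluripotency list 2 of 25 rose and 22 fell, and in the ribosomal list 4 of 80 rose and 66 fell. Of the 29 neural stem and progenitor genes tested with such an end, 27 rose and 2 fell. Dbx1, a homeobox gene of the neural tube, had 69.3 and 69.7 CPM at day 4 and no counts at day 0, at least 854-fold higher, while Otx2, a forebrain and midbrain homeobox gene, had 29.9 and 32.5 CPM at day 4, against 224 and 230 CPM at day 0. Of 30 Hox genes, 28 rose and 1 fell. Of 26 neuron genes, 24 rose and 2 fell, and of 8 pluripotency genes, 2 rose and 6 fell. In the retinoic acid response list 16 of 20 rose, among them Nr2f1, an orphan nuclear receptor, with 342 and 354 CPM at day 4, against 0.42 and 0.336 CPM at day 0. Rarg, a retinoic acid receptor, fell, with 2.78 and 3.83 CPM at day 4, against 71.7 and 66.5 CPM at day 0. Of 80 ribosomal protein genes 4 rose and 66 fell, with a median log2 fold change of -0.43, and of 24 DNA replication genes 1 rose and 18 fell, with a median of -0.48. Replication-dependent histones gave 14 rises and 1 fall among 41 tested, but they are near-identical copies among which estimated counts can be split.

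Genes that make, remove or read the marks were among those at such regions. An end of 30 of 37 histone acylation writers, erasers and readers was triple-marked (81.1%), where 49.6% of all genes had one. Among genes that passed the filter on low counts, it was 28 of 34 in this list and 10224 of 14397 matched protein-coding genes. Of those 28, 11 rose and 11 fell between day 4 and day 0, close to the 36.2% and 36.1% of all genes tested. Mllt3, a YEATS-domain reader of crotonylated and acetylated lysine, had 164 and 153 CPM at day 4, against 8.3 and 7.85 CPM at day 0, a 19.5-fold rise (adjusted p = 2.79e-16, edgeR). Sirt1, a deacylase, had 36 and 35.8 CPM at day 4, against 179 and 176 CPM at day 0, and fell 4.95-fold. In the crotonyl-CoA and acyl-CoA supply list 10 of 18 rose and 5 fell; Acly, the ATP citrate lyase that makes cytosolic acetyl-CoA, had 959 and 980 CPM at day 4, against 306 and 299 CPM at day 0. In the glycolysis and lactate list 5 of 22 rose and 12 fell. Slc16a1, a lactate and pyruvate carrier, had 24.4 and 29.2 CPM at day 4, against 103 and 98.7 CPM at day 0, and Mpc1 and Mpc2, which form the mitochondrial pyruvate carrier, rose 3.13-fold and 3.73-fold.

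More genes with only their 3′ end at a triple-marked region fell than rose. They were taken over all the regions, not only the 242 with no gene start. Their region may thus also hold the start of another gene. Of 265 matched genes, 200 passed the filter on low counts. At day 4 against day 0, 47 rose and 93 fell (49 and 95 of 259 without the filter), where 36.2% of all genes tested rose and 36.1% fell, and the median was -0.45 (-0.31 and -0.28 without day 0 replicate 1 or 2). Among genes with a start away from the regions 27.7% rose and 41.3% fell of the 3476 that passed the filter (40.4% of those matched), with a median of -0.26. Tfap2a, a neural crest transcription factor, had 74.1 and 66.4 CPM at day 4, against 0.683 and 0.953 CPM at day 0, an 85.6-fold rise. Pim2, a serine/threonine kinase, had 9.61 and 10.7 CPM at day 4, against 398 and 379 CPM at day 0. Nr2f2, a nuclear receptor, had 53.4 and 55.6 CPM at day 4, against 0.263 and 0 CPM at day 0.

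Between day 8 and day 4, which share the day 4 libraries with the comparison above, 1705 of the 7973 genes with a start at a triple-marked region rose and 2083 fell, or 47.5%, where 41.5% of all genes tested were called, 21.7% higher and 19.8% lower. At 2-fold or more, 410 rose and 227 fell, where 9.25% of all genes tested rose and 3.69% fell. Among matched protein-coding genes, 45.8% were called at any size, 23.8% higher and 22.0% lower. Npy, which encodes neuropeptide Y, had 11.9 and 9.06 CPM at day 8, against 0.42 and 0.722 CPM at day 4, a log2 fold change of 4.19 ± 0.308 (adjusted p = 1.26e-08, edgeR). Lin28a had 44.8 and 57.6 CPM at day 8, against 3.62 and 3.22 CPM at day 4 (adjusted p = 2.31e-12, edgeR). Cyp26b1, an enzyme that degrades retinoic acid, had 3.62 and 3.07 CPM at day 8, against 111 and 147 CPM at day 4, and Cyp26a1, its paralog, had 2.89 and 1.96 CPM, against 30.3 and 40.8 CPM at day 4. Of the 80 ribosomal protein genes tested, 74 fell and 1 rose.

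A small group of the regions had no peak with DMSO at day 2. Of the 140 regions with no DMSO peak of any mark, some held the starts of 52 matched genes, of which 47 passed the filter on low counts. Between day 4 and DMSO at day 2, a comparison added after the data were seen, 35 of these 47 rose and 5 fell (35 and 5 of 52 without the filter), with a median log2 fold change of 2.54, where 61.2% of all genes tested were called, 30.6% higher and 30.6% lower. Over all 7973 genes with a start at a triple-marked region 2788 rose and 2801 fell in that comparison. Nhlh1, a neuronal helix-loop-helix factor, had 191 and 166 CPM at day 4, against 7.12 and 6.14 CPM with DMSO, a log2 fold change of 4.74 ± 0.12 (adjusted p = 5.84e-15, edgeR). Its region at chr1:172053984-172059403 had day 4 H3K9ac folds of 32.8 and 37.2, no ATAC peak, and no peak with DMSO. Slc32a1, the vesicular transporter of GABA and glycine, had 38 and 31.5 CPM at day 4, against 0.105 and 0.171 CPM with DMSO. Actl6b, a neuron-specific subunit of the BAF chromatin remodeller, had 12.5 and 11.9 CPM at day 4, against 0.314 and 0.227 CPM with DMSO. Cercam fell, with 28.4 and 29.3 CPM at day 4, against 114 and 109 CPM with DMSO. Promoters were compared for the 47 starts whose nearest triple-marked region had no DMSO peak. Of these, 15 (31.9%) passed the CpG limits given above, against 74.8% of all starts at these regions. Chosen by nearest region, these 47 starts need not be the 47 genes that passed the filter. The rises named in this subset were picked by the same rule as the others, but the subset itself was formed after the data were seen.

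Calls of any size with MS-275 were more often lower, and calls of at least 2-fold more often higher. Against DMSO at day 2, 2324 of the 7973 genes with a start at a triple-marked region rose and 3362 fell (29.1% and 42.2%), where 31.9% of all genes tested rose and 31.4% fell, and 63.3% were called. At 2-fold or more, 928 rose and 430 fell (11.6% and 5.39%), where 19% of all genes tested rose and 6.04% fell. The median log2 fold change was -0.10, against 0.01 over all genes tested. Matched protein-coding genes were called at any size in 69.8%, with 35.2% higher and 34.5% lower. Where the H3K18la peak of DMSO was also called in MS-275, 33.0% of 2960 genes rose and 41.4% fell, and at 2-fold or more 422 rose and 212 fell. Where it was not called in MS-275, 24.7% of 4605 genes rose and 45.3% fell, with a median of -0.15, and at 2-fold or more 356 rose and 208 fell. Where H3K18la was called in MS-275 and not in DMSO, 59 of 91 genes rose and 11 fell, with a median of 1.03; these are few genes and the difference between the 3 sets was not tested. The H3K18la lists rest on 1 library each.

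**Figure D5:**
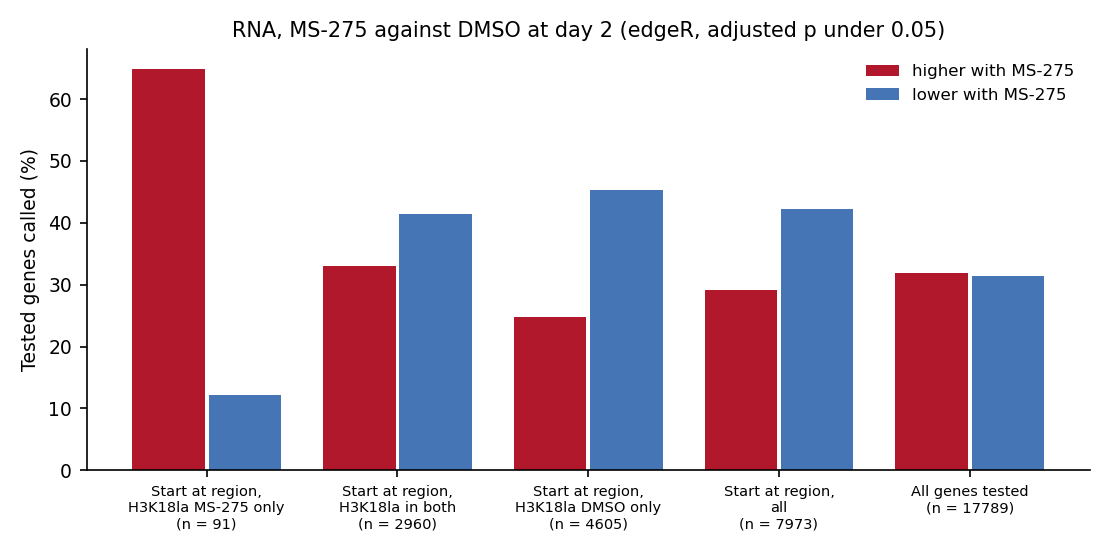
Percentage of tested genes called higher (red) and lower (blue) with MS-275 than with DMSO at day 2 (edgeR, adjusted p under 0.05), for genes with a start at a triple-marked region by their day 2 H3K18la peaks, for all of them and for all genes tested; n is the number of genes tested. Lower calls of any size outnumber higher ones in both sets with a DMSO H3K18la peak, where at 2-fold or more 422 and 356 genes rose and 212 and 208 fell, and 64.8% of the 91 genes with a peak in MS-275 only are higher.

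Genes with large falls with MS-275 included several of neural cells. Lrrc4, a postsynaptic adhesion protein, had 0.396 and 0.747 CPM with MS-275, against 58.1 and 49.1 CPM with DMSO, a log2 fold change of -6.54 ± 0.177 (adjusted p = 6.23e-14, edgeR). Prdm13, a transcription factor of inhibitory spinal neurons, had 0.594 and 0.299 CPM with MS-275, against 12.1 and 10.3 CPM with DMSO. Sox21, a neural Sox factor, had 0.644 and 0.597 CPM with MS-275, against 12.4 and 12.8 CPM with DMSO. Itgb8 had 2.13 and 2.69 CPM with MS-275, against 54.7 and 57.0 CPM with DMSO, and Igfbp5, an insulin-like growth factor binding protein, had 17.1 and 20.9 CPM, against 347 and 346 CPM with DMSO. Among genes whose H3K18la peak was called in DMSO only, Ptn, the growth factor pleiotrophin, had 30.4 and 35.3 CPM with MS-275, against 358 and 344 CPM with DMSO.

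The genes with the largest fitted rises with MS-275 were close to off with DMSO, which a ranking by fitted change favours. Icam1, an adhesion molecule of endothelial and immune cells, had 17.5 and 17.8 CPM with MS-275, against 0.157 and 0.171 CPM with DMSO, a log2 fold change of 6.7 ± 0.35 (adjusted p = 9.39e-11, edgeR). Its region at chr9:21015141-21016093 was weak at day 4, with folds of 5.1 and 4.34 for H3K9ac and 2.49 and 4.31 for H3K18la, and no ATAC peak. It had an H3K18la peak of fold 3.66 with MS-275 and none with DMSO. H3K9ac and H3K9cr had peaks in both treatments, of folds 14.8 and 17.2 with MS-275 and 8.21 and 4.97 with DMSO. Galnt6, a glycosyltransferase, had 19.3 and 18.4 CPM with MS-275, against 0.157 and 0.227 CPM with DMSO, and Tesc, a calcium-binding protein, had 12.6 and 13.6 CPM, against 0.262 and 0.171 CPM with DMSO. Hoxa9 had 12.1 and 10.6 CPM with MS-275 and 3 counts in all with DMSO, too few for a firm fold change. Mesenchymal markers moved in the same comparison, with summed levels of 560 and 515 CPM with MS-275, against 37.2 and 39.1 CPM with DMSO, and neural markers with 1012 and 961 CPM, against 1241.5 and 1249 CPM with DMSO; their part in these results was not tested. By list, 19 of 29 neural stem and progenitor genes and 59 of 80 ribosomal protein genes with an end at these regions fell, while 7 and 3 rose, where 31.9% of all genes tested rose and 31.4% fell.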

How the data were processed

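The RNA table holds gene-level estimated counts that the authors deposited, and the submitters' processing notes name Salmon 1.1.0 and DESeq2 1.26.0. The 14 peak lists, 1 per library and not pooled, carry the caller's −log10 p and q values, its fold enrichment ratio and its pileup signal as the authors deposited them. Bowtie2 2.4.1, MACS2 2.2.7.1 and the GRCm38 build are listed in the submitters' processing notes. No source used here gives the caller settings or controls. The lowest −log10 q in a list was 2.0 to 2.02. Peaks were compared by an overlap of 1 base. Shares have exact binomial 95% intervals (Clopper-Pearson), which cover counting error only.

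Gene records were those of RefSeq GRCm38.p6, of which 17492 of 21887 protein-coding genes had a strand; without a strand, starts and 3′ ends were not told apart. By symbol or synonym, 20801 of these genes matched 1 of 55385 RNA identifiers. Estimated counts (19.2% to 25.8% of values not whole) were rounded and fitted over all 10 libraries in edgeR 4.0.16 (R 4.3.3) by quasi-likelihood, with TMM scaling, the default filter on low counts and Benjamini-Hochberg adjustment. The script was tested on simulated data. CPM was computed from these counts. No transcript lengths were used, so levels are not compared between genes, and overlapping genes and near-identical copies are uncertain.

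Regions were ranked by the lowest of 6 within-list percentiles of fold enrichment, and the 8 top-ranked with a start of known strand, the 6 top-ranked with only a 3′ end and the 4 widest could be named; 1 of the widest is not reported here. Genes named were the 5 largest fitted rises and falls per RNA comparison among called genes with a start of known strand at a region, of at least 2-fold, at a mean of at least 5 CPM and with groups that did not overlap, and up to 4 from each list at a mean of at least 1 CPM. Members and lists were chosen with earlier results of these data known. The comparison of day 4 with day 2 DMSO and the subset without a DMSO peak were added after the data were seen. Replicate numbers did not pair the libraries. Libraries of a group differed by more than sampling noise, with a chi-square per gene of 2.82 to 6.28.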

Additional observations from a re-analysis of the deposited data

How the results depend on the processing

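Counting only 3′ ends left 1182 regions, where either end gave 10175, and the other limits on distance, shared bases and q value and leaving out a library (10835 to 10953) kept the number within 1.5 times. The share open in both ATAC libraries, 82.3%, was 91.3% for either library, 85.3% to 88.2% with 1 library left out, 75.4% with a −log10 q of at least 5 and 73.1% with an overlap of 200 bases. With at least 50% of a region covered by each mark, all 3 marks were found in 3.41% with MS-275 and 39.3% with DMSO, and H3K18la alone in 3.42% and 40.7%. With a −log10 q of at least 5 the shares for all 3 marks were 21.9% with MS-275 and 85.5% with DMSO, and for H3K18la 21.9% and 86.3%. Shortening the DMSO H3K18la list, which removed only its weakest peaks, gave 88.4%. The H3K18la settings were chosen after seeing the data. H3K18la was thus found in fewer regions with MS-275 than with DMSO under each of these settings, and the size of its share depended on the overlap and the threshold. Termini of every transcript were not run.

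Counts of called genes with a triple-marked start stayed within 1.5 times under RLE scaling, DESeq2 1.42.0 (5847, 3124 and 5014), no filter and with 1 library left out. With 1 library left out they were 5841 to 5895 against 6294 for day 4 over day 0, 3022 to 3541 against 3788 for day 8 over day 4, and 5019 to 5167 against 5686 for MS-275 over DMSO. The replicate block gave 6291, 3788 and 5681, and 138 against 140 for genes with only a 3′ end; the correlations of same-numbered deviations were -0.03, 0.001 and 0.086, and the block moved no count by 1.5 times. Of 945 values of named genes under alternatives, 944 kept direction and call, and Hist2h2aa1 lost its call under DESeq2 (log2 fold change 2.08). Read depth of the peak lists is unknown, so a missing peak is not an absent mark.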

Other observations

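In 724 of the 10175 regions (7.12%), DMSO cells at day 2 had H3K9ac and H3K9cr peaks and no H3K18la peak. Of the 560 tested genes with a start there, 284 rose and 114 fell at day 4 against DMSO at day 2 (edgeR, adjusted p under 0.05), with a median log2 fold change of 0.32, where 30.6% of all genes tested rose and 30.6% fell; the comparison was added after the data were seen.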
